A study of Bubalus bubalis with 36 samples.

Results

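Inguinal fat, a depot under the skin of the groin, was compared with omental fat, a depot of the abdominal cavity, in the same 6 water buffaloes (Bubalus bubalis). The comparison used the 12 small RNA libraries whose titles name these depots, 6 inguinal (IAT) and 6 omental (OAT), of 36 libraries over 6 depots in all, and each library was paired with the other depot of its animal by the buffalo number. The series groups inguinal fat with back and sternal fat as subcutaneous, and omental fat with pericardial and perirenal fat as visceral, and asks how microRNA (miRNA) levels differ between these classes. All animals shared 1 rearing scheme: weaning at 3 months, fattening from 15 months and slaughter at 20 months of age, with no treatment named, and neither breed nor sex is stated in the labels used. Reads had been counted per feature, either a bovine miRNA name or a numbered candidate locus without a miRNA name. Levels are given as CPM, read counts brought to a common library size, with library sizes scaled by TMM factors that correct for differences in composition.

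MicroRNAs are short RNAs that guide silencing complexes to complementary sites in messenger RNAs and lower the output of those transcripts. Several are encoded inside the HOX clusters, the gene arrays whose members are switched on in order along the body axis: the miR-196 genes lie in the HOXA, HOXB and HOXC clusters, miR-10a in HOXB, miR-10b in HOXD and miR-615 in HOXC. Fat depots keep a HOX pattern of the body region in which they formed. Omental fat is covered by mesothelium, a cell layer with epithelial traits, and carries immune cell clusters, so miRNAs of epithelial and white blood cells belong to the background of this depot.

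Library totals were 11175382 to 13448792 counted reads in inguinal and 11208835 to 12980026 in omental fat, and 1 read corresponded to 0.0665 to 0.105 CPM. A library held 882 to 1052 of the 1682 features. Library names carry a letter whose meaning the labels do not give. It was B in all inguinal libraries and in 4 omental ones and A in OAT4 and OAT6, so among these 12 libraries the letter A occurs in omental fat alone. No miRNA marks fat alone, so levels of some miRNAs of other tissues are given, which cannot settle the tissue label. The summed level of the skeletal and cardiac muscle list was 42.1 to 135 CPM in inguinal and 53.9 to 456 CPM in omental libraries. The heart miRNA miR-208a was at 0 in 4 libraries of inguinal and 5 of omental fat, but miR-208b reached 3.61 CPM in OAT5. The muscle miRNA miR-499 was at 7.54 to 24.2 CPM in inguinal and 8.14 to 63.6 CPM in omental libraries. The liver miRNA miR-122 reached 11.9 CPM in IAT6 and 34.25 CPM in OAT6. The pancreas miRNAs miR-216a and miR-216b reached 6.29 and 6.38 CPM in OAT6.

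The inguinal depot was set apart from the omental depot chiefly by the miR-196 pair. miR-196a and miR-196b, both encoded in HOX clusters, rose in inguinal fat, with mean levels of 357 ± 162 CPM against 8.21 ± 14.2 CPM and 3196 ± 1496 CPM against 91.7 ± 166 CPM (SD, n = 6 each). miR-218, a miRNA encoded within the SLIT genes and known from motor neurons, fell by 2.09 on the log2 scale, as did the candidate locus NC_059175.1_39359 by 2.46. These 4 features, 2 higher and 2 lower in inguinal fat, were all that differed among 536 tested in edgeR's quasi-likelihood test with the animal as a block (0.746%, Benjamini-Hochberg adjusted p under 0.05). Where no other fit is named, a feature is said to be called, or not called, by this test. An unadjusted p under 0.05 was reached by 47 features, 8.77% of those tested, 19 higher and 28 lower. The median difference of all features was −0.028 on the log2 scale and their median SE was 0.46.

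The count of calls differed between fits, and the cause was not tested. Without the block, 1 feature was called, miR-196a, and DESeq2 with the block called 23; edgeR without the filter on low counts called 11. Within the 4 animals whose libraries of both depots carry the letter B, edgeR called 0 of 539, with 29 at an unadjusted p under 0.05; there miR-196a differed by 6.22, miR-196b by 7.53, miR-218 by −1.71 and NC_059175.1_39359 by −2.18. Without animal 1 or without animal 4 the count was 2, miR-196a and NC_059175.1_39359 in both cases. OAT2, OAT4 and OAT6 stood apart by their epithelial miRNAs; without these 3 animals, a choice made after the data were seen, 2 of 541 were called, miR-196a (7.11) and miR-196b (8.58), and NC_059175.1_39359 (−2.37) was not.

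**Figure D1:**
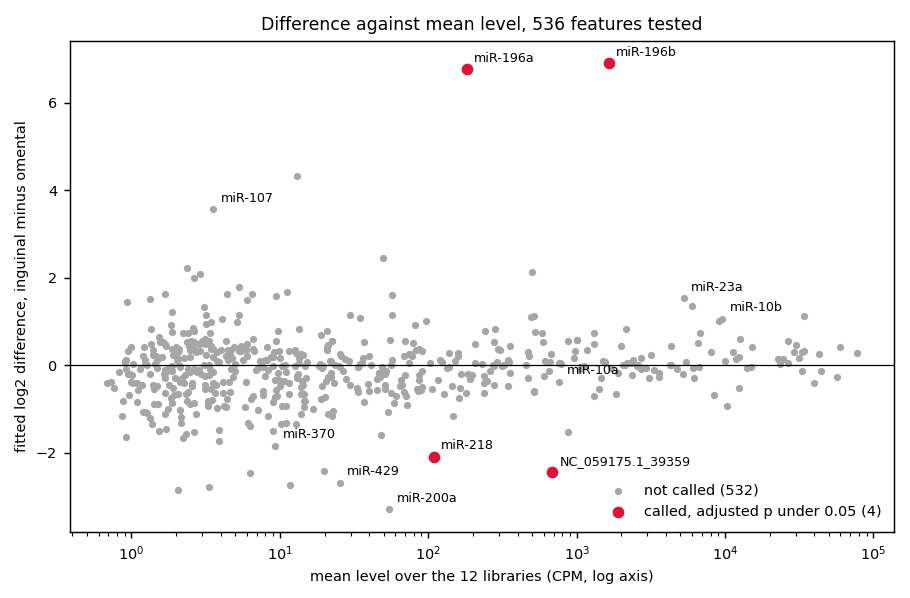
Fitted log2 difference of inguinal minus omental fat (vertical axis) against the mean level over the 12 libraries in CPM (horizontal, log axis); each point is 1 of 536 features tested, and red points are the 4 called. miR-196a and miR-196b lie above 6 at the top, and most features lie within 1 log2 unit of 0.

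miR-196a, which lowers HOX messenger RNAs such as that of HOXC8 and is known for driving beige fat formation in mice, was at 195 to 564 CPM with a median of 327 CPM in inguinal and 0.612 to 37.1 CPM with a median of 3.01 CPM in omental libraries. Every inguinal library exceeded every omental one, and the omental library of animal 2 stood above the other omental libraries, which held at most 3.62 CPM. OAT6 was the lowest at 0.612 CPM, although in miR-196b it came next after OAT2 among omental libraries. The fitted log2 difference was 6.76 ± 0.83 (SE, adjusted p = 0.00431), and 5.44 without the block. By animal, the log2 difference was 2.72 in animal 2 and 5.96 to 7.98 in the other 5.

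miR-196b, its near-identical partner from the HOXA cluster, was at 1736 to 5592 CPM with a median of 2596 CPM in inguinal and 6.11 to 425 CPM with a median of 15.2 CPM in omental libraries. The depots again did not overlap; complete separation with inguinal fat higher was seen for 2 features (0.373%), these same 2. OAT2 held the 425 CPM and OAT6 78.7 CPM, while the other omental libraries held at most 16.95 CPM. The log2 difference was 6.91 ± 1.09 (SE, adjusted p = 0.0227), with 2.55 in animal 2, 4.80 in animal 6 and 7.001 to 9.47 in the others. Its call was lost without animal 1 (6.37, adjusted p = 0.0909), animal 3 (6.93, 0.0578) or animal 4 (6.75, 0.0773), in the fit without the block (5.12, 0.0596) and without the filter on low counts (6.99, 0.238). Reads of the pair can be divided between the names by counting, and the summed pair differed by 6.86 ± 1.03 (SE, adjusted p = 0.0263). In bulk tissue, fewer cells of a type and less RNA per cell cannot be told apart.

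The other HOX-cluster miRNAs did not share this size of difference. miR-10b, the most abundant of the list, was at 10152 to 17491 CPM with a median of 12017 CPM in inguinal and 2722 to 10920 CPM with a median of 5724 CPM in omental libraries, with a log2 difference of 1.06 ± 0.28 (SE, adjusted p = 0.232). It was higher in inguinal fat in 6 of 6 animals, a pattern shared by 2.43% of all features, but OAT1 at 10920 CPM lay within the inguinal range. miR-10b passed the threshold in the fits of all 36 libraries with the block (1.07) and with the letter besides (1.19), without the filter (1.20) and with DESeq2 (1.11), but not in that of all 36 libraries without the block (1.03, adjusted p = 0.114). miR-10a went the other way in 4 animals: it was at 476 to 859 CPM with a median of 535 CPM in inguinal and 316 to 1542 CPM with a median of 938 CPM in omental libraries, with a log2 difference of −0.38 ± 0.38 (SE, adjusted p = 0.802). OAT2 and OAT6, the omental libraries highest in miR-196b, were the lowest in miR-10a at 343 and 316 CPM. miR-615 did not pass the filter on low counts and was at 0.420 to 2.06 CPM in inguinal and 0.175 to 1.72 CPM in omental libraries. Of the 4 members tested, 2 were called higher and none lower. These 2, the miR-196 pair, were also the only ones called higher among all 536 features (0.373%). The list median of 3.91, against −0.028 over all features, lay between the miR-196 pair and miR-10b and describes neither.

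**Figure D2:**
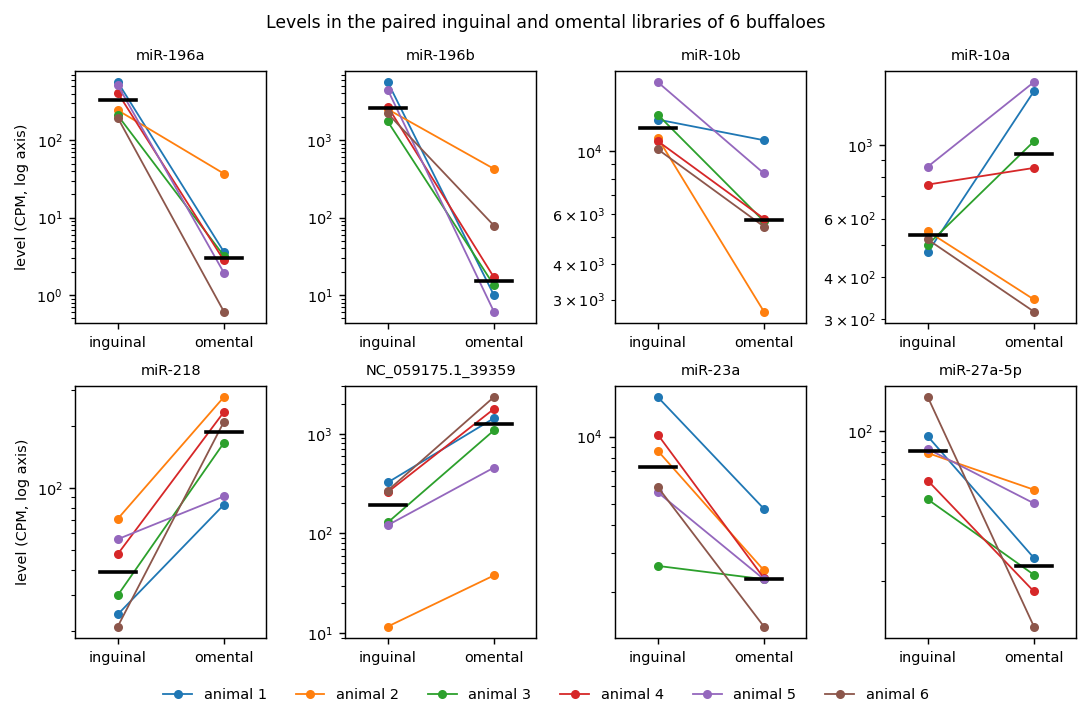
Level in CPM (vertical, log axis) in the inguinal and the omental library of each animal, joined by a line and coloured by animal; black bars are depot medians. miR-196a, miR-196b and miR-218 show no overlap between the depots, the other 5 features do, and animal 2 has the smallest miR-196 difference.

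miR-218 was lower in inguinal fat in every animal. It was at 21.1 to 70.7 CPM with a median of 38.8 CPM in inguinal and 82.8 to 278 CPM with a median of 188 CPM in omental libraries, the 1 feature whose inguinal libraries all lay below the omental ones (0.187%). The log2 difference was −2.09 ± 0.38 (SE, adjusted p = 0.0402), from −0.69 in animal 5 to −3.31 in animal 6. Leaving out animal 1, 2, 3, 4 or 6 moved it to −2.08, −2.08, −1.93, −2.06 or −1.82 and ended the call, with adjusted p from 0.116 to 0.191, as did the fit without the block (−2.09, adjusted p = 0.0596). The 3 omental libraries highest in miR-218, OAT2, OAT4 and OAT6, were also the 3 highest in the summed epithelial list, at 575, 322 and 106 CPM. IAT6, the inguinal library highest in that list at 81.6 CPM, was the lowest of both depots in miR-218, at 21.1 CPM. The part of other cell types in the difference was not tested. Without animals 2, 4 and 6 miR-218 differed by −1.65 (adjusted p = 0.740).

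Of the other 8 tested miRNAs of the neural list none was called, and the list median was −0.0035. miR-9-5p, best known from neural progenitors, was at 2.87 to 9.06 CPM in inguinal and 4.13 to 20.2 CPM in omental libraries and differed by −0.85 ± 0.47 (SE, adjusted p = 0.594).

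The candidate locus NC_059175.1_39359 was lower in inguinal fat in every animal. It was at 11.6 to 324 CPM with a median of 194 CPM in inguinal and 37.9 to 2335 CPM with a median of 1256 CPM in omental libraries. Both libraries of animal 2 were the lowest of their depots, at 11.6 and 37.9 CPM. The log2 difference by animal ran from −1.69 to −3.12, and the fit gave −2.46 ± 0.31 (SE, adjusted p = 0.00431). The call was lost without the block (−2.67, adjusted p = 0.434). It was also lost in the fit of all 36 libraries with the block, in which an animal has 1 effect for all depots (−2.60, adjusted p = 0.334). Fits that kept the pairing lost it in the letter B pairs (−2.18, adjusted p = 0.158) and without animals 2, 4 and 6 (−2.37, adjusted p = 0.123). The cause was not tested.

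The miR-23a, miR-27a and miR-24 cluster, with its paralogue miR-23b, miR-27b and miR-24, is known for acting on endothelial growth and, through miR-27, for holding back fat cell formation. None of 8 tested arms was called by edgeR. DESeq2 with the block called 3 of them, miR-23a, miR-27a-5p and miR-23b-5p, where it called 23 of all 536 features. The same 3 were called by edgeR without the filter, where 11 of 1554 features were called. The median log2 difference of the 8 arms was 0.53. miR-23a came nearest: it was at 2626 to 15048 CPM with a median of 7287 CPM in inguinal and 1404 to 4740.4 CPM with a median of 2302 CPM in omental libraries, with a log2 difference of 1.54 ± 0.31 (SE, adjusted p = 0.0680). It was higher in inguinal fat in 6 of 6 animals, by 0.20 in animal 3 and 1.30 to 2.14 in the others, and without animal 3 it was called (1.88, adjusted p = 0.0237). DESeq2 (1.59, adjusted p = 0.00127), the fit without the filter (1.68, 4.40e-04) and the fit of all 36 libraries with the block (1.65, 0.0239) or without it (1.70, 0.00971) called it too. With the letter added to the fit of all 36 libraries with the block it was not called (1.49, adjusted p = 0.0581), and the sum of miR-23a and miR-23b-3p, whose reads can be divided by counting, differed by 1.22 ± 0.36 (SE, adjusted p = 0.353).

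miR-27a-5p, the minor arm of miR-27a, was at 48.1 to 145 CPM in inguinal and 12.2 to 53.4 CPM in omental libraries and differed by 1.59 ± 0.43 (SE, adjusted p = 0.241), with 6 of 6 animals higher; the DESeq2 value was 1.63 (adjusted p = 0.00612). The major arm, miR-27a-3p, differed by 0.60 ± 0.29 (SE, adjusted p = 0.547). miR-23b-5p, the minor arm of miR-23b, pointed the other way at −2.75 ± 0.99 (SE, adjusted p = 0.506), and at −2.76 in DESeq2 (adjusted p = 0.00521). It was at 11.1 and 19.1 CPM in the inguinal libraries of animals 3 and 4 and at most 1.35 CPM in those of the other 4 animals, against 8.88 to 30.1 CPM in omental libraries.

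Stromal miRNAs had higher fitted values in inguinal fat, none of them past the threshold. All 6 tested members of the smooth muscle and stroma list had log2 differences above 0, from 0.30 to 1.13 with a median of 0.67, while 46.1% of all features lay above 0. miR-199b was at 362 to 1181 CPM with a median of 616 CPM in inguinal and 218 to 528 CPM with a median of 278 CPM in omental libraries (log2 difference 1.13 ± 0.35 SE, adjusted p = 0.353). Its reads can be divided with near-identical miR-199a-3p by counting, and miR-199a-3p took 31.6 to 77.9% of their sum in a library. The sum differed by 0.79 ± 0.33 (SE, adjusted p = 0.572). miR-214, transcribed together with a miR-199 gene, was at 505 CPM in IAT1 and 24.4 to 76.6 CPM in the other inguinal libraries, and differed by 0.91 ± 0.49 (SE, adjusted p = 0.591). miR-199a-5p (0.83 ± 0.49) and miR-199a-3p (0.52 ± 0.40) were not called either. miR-145 (0.36 ± 0.40) was higher in inguinal fat in 3 of 6 animals and miR-143 (0.30 ± 0.42) in 4 of 6.

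Epithelial miRNAs were high in some omental libraries and not in others. miR-200a, of the miR-200 family that keeps cells epithelial by lowering ZEB factors, was at 372, 185 and 51.5 CPM in OAT2, OAT4 and OAT6 and at 1.61 to 4.25 CPM in the other 3. Among inguinal libraries IAT6 held 36.4 CPM and the other 5 held 0.412 to 1.05 CPM. It was lower in inguinal fat in 6 of 6 animals, as were 3.92% of all features, and the log2 difference of −3.30 ± 1.38 (SE, adjusted p = 0.540) was not called. DESeq2 called it at −3.21.

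miR-429 followed the same libraries, at 152, 97.9 and 23.2 CPM in OAT2, OAT4 and OAT6, 24.3 CPM in IAT6 and at most 2.59 CPM elsewhere (log2 difference −2.69 ± 1.44 SE, adjusted p = 0.591). miR-200c differed by −0.77 ± 0.47 (SE, adjusted p = 0.612). miR-183 was the 1 tested member with a value above 0 (log2 difference 2.08 ± 0.87 SE, adjusted p = 0.540) and lay at 0.257 to 18.4 CPM in inguinal and 0 to 2.91 CPM in omental libraries. miR-200b failed the filter on low counts and was at 25.6, 33.2 and 5.94 CPM in the same 3 omental libraries, at 4.63 CPM in IAT6 and below 1 CPM elsewhere. In total 0 of 4 tested epithelial members were called. miR-449a, the marker of ciliated epithelium that was the 1 tested member of its list, was at 1021 CPM in OAT2, 323 CPM in OAT4 and 13.7 to 74.4 CPM in the other 10 libraries (log2 difference −1.17 ± 0.73 SE, adjusted p = 0.626).

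All tested white blood cell miRNAs but miR-342 were highest in OAT2, OAT6 and IAT6, in varying order. miR-142-3p, made by blood-forming cells, was at 137 CPM in OAT2, 65.00 CPM in OAT6, 15.6 CPM in IAT6 and 8.89 CPM in OAT4, with at most 4.13 CPM in the others. Its log2 difference was −2.41 ± 1.05 (SE, adjusted p = 0.540). miR-142-5p differed by −1.17 ± 0.83, with the sign turned to 0.36 without animals 2, 4 and 6, and miR-150, a lymphocyte miRNA, by −0.94 ± 0.47; miR-150 was highest in both libraries of animal 6, at 22904 CPM in IAT6 and 49815 CPM in OAT6. miR-155, induced in activated immune cells, was at 7591, 3798 and 3644 CPM in OAT2, OAT6 and IAT6 and at most 1781 CPM elsewhere (−0.67 ± 0.44). By contrast miR-342 was at 849.8 CPM in OAT2 and 523 CPM in OAT4, within or below the range of 609.9 to 2270.1 CPM in inguinal libraries (−0.021 ± 0.27, with the sign turning between fits). It was highest in IAT6 at 2270.1 CPM, then in OAT1 (1553 CPM) and OAT6 (1524 CPM). miR-223, a myeloid miRNA, was highest in IAT6 (32.3 CPM), OAT2 (24.9 CPM) and OAT6 (20.2 CPM). It was higher in inguinal fat in 4 of 6 animals (0.16 ± 0.33). Both miR-342 and miR-223 were chosen after their values were seen. Of 8 tested members none was called and the median was −0.69. Of these members 1 lay above 0 and 7 below, where 46.1% of all features lay above 0. The summed leukocyte list was 3228 to 29099 CPM in inguinal and 4020.1 to 55597 CPM in omental libraries.

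**Figure D3:**
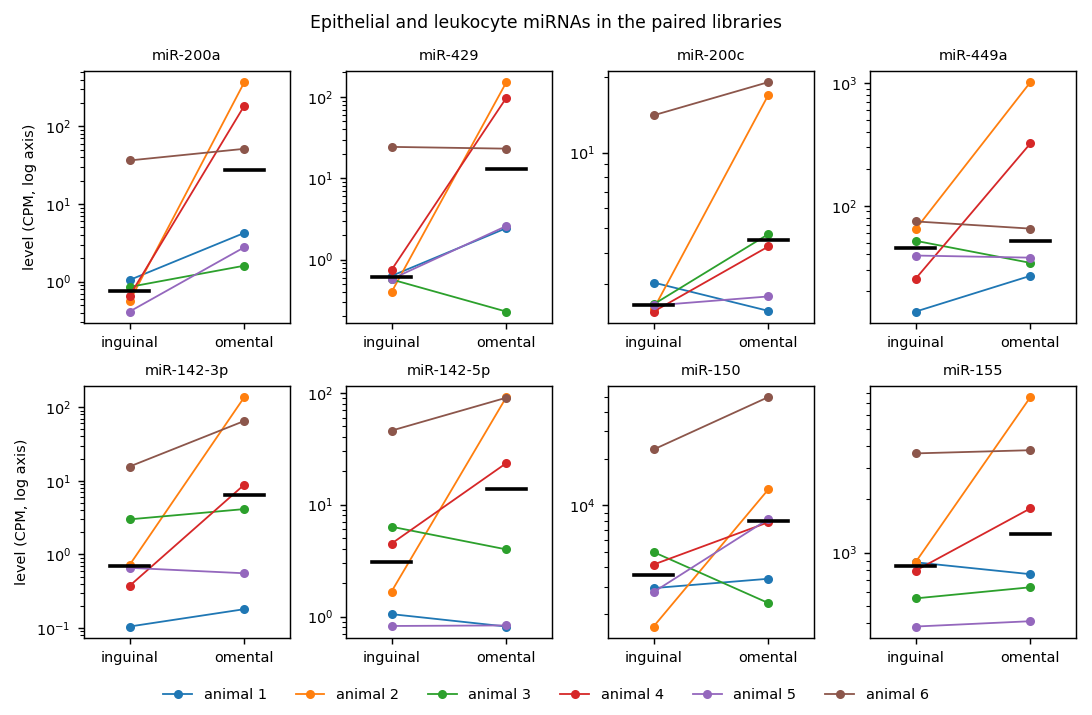
Level in CPM (vertical, log axis) of 4 epithelial (top) and 4 white blood cell miRNAs (bottom) in the inguinal and omental library of each animal, joined by a line; black bars are depot medians. The omental libraries of animals 2 and 4 lie far above their inguinal partners for miR-200a, miR-429 and miR-449a, both libraries of animal 6 are high for most panels, and the depots overlap in every panel.

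Red blood cell miRNAs overlapped between the depots. miR-451 was at 15331 to 75296 CPM in inguinal and 18209 to 86975 CPM in omental libraries (log2 difference −0.40 ± 0.37 SE, adjusted p = 0.773), and miR-486 differed by −0.33 ± 0.39. miR-144, processed from the same transcript as miR-451, was lower in inguinal fat in 6 of 6 animals, at 1.03 to 28.1 CPM against 4.16 to 31.1 CPM (log2 difference −1.32 ± 0.49 SE, adjusted p = 0.523). The endothelial miRNA miR-126-3p differed by 0.15 ± 0.27 (SE, adjusted p = 0.938), at 23942 ± 4403 CPM in inguinal and 21693 ± 4442 CPM in omental libraries (SD, n = 6 each). miR-375, known from endocrine and gut cells, was at 0.210 to 243 CPM in inguinal and 0 to 74.7 CPM in omental libraries (log2 difference 2.46 ± 1.26 SE, adjusted p = 0.591), with IAT1 at 0.210 CPM and OAT1 at 0; DESeq2 called it (2.66, adjusted p = 0.0396). The kidney and gut miRNA miR-194 differed by 0.84 ± 0.35 (SE, adjusted p = 0.540).

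The pro- and anti-adipogenic lists gave no call in edgeR, and 3 calls in DESeq2 with the block: miR-224, miR-27a-5p and miR-107. That DESeq2 fit called 23 of all 536 features. Of 14 tested miRNAs of the anti-adipogenic list, described as slowing fat cell formation, edgeR called none, 6 lay above and 8 below 0, and the median was −0.0084. miR-224 was higher in inguinal fat in 6 of 6 animals, at 468 to 1257 CPM with a median of 663 CPM against 286 to 789.8 CPM with a median of 405 CPM (log2 difference 0.74 ± 0.24 SE, adjusted p = 0.376), and DESeq2 called it (0.79). miR-31 was lower in 6 of 6 animals (log2 difference −0.59 ± 0.33 SE, adjusted p = 0.594). Of 16 tested pro-adipogenic miRNAs edgeR called none either and the median was −0.27. miR-30d (−0.58 ± 0.28) and miR-30a-5p (−0.55 ± 0.26), of a family that favours fat cell formation by lowering RUNX2, were both lower in inguinal fat in 6 of 6 animals, with adjusted p of 0.547 and 0.547. miR-107 had the largest fitted difference of this list (log2 difference 3.57 ± 1.54 SE, adjusted p = 0.540) at 0.374 to 10.7 CPM against 0 to 6.97 CPM, and DESeq2 called it (4.38, adjusted p = 0.00145). It was higher in inguinal fat in 5 of 6 animals, while animal 4 differed by −3.73, with IAT4 at 0.374 CPM and OAT4 at 6.97 CPM. miR-107 is near-identical to miR-103, and reads can be divided between them. miR-103, at a mean of 469 CPM, differed by 0.30 ± 0.33 (SE, adjusted p = 0.818).

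In the brown and beige fat list 1 of 18 members was called, the miR-196a already counted among the HOX-cluster miRNAs, where 0.746% of all features were called. The median was 0.40 with 13 members above 0, against 46.1% of all features. miR-34a was at 158 to 533 CPM in inguinal and 49.3 to 318 CPM in omental libraries (log2 difference 0.79 ± 0.36 SE, adjusted p = 0.547), and miR-455-3p, known for favouring brown fat, differed by 0.56 ± 0.29.

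Of 32 tested members of the DLK1-DIO3 list, an imprinted miRNA cluster expressed from the maternal chromosome, none was called. In this list 21 lay above 0, where 46.1% of all features did, and the median was 0.12. miR-370 was lower in inguinal fat in 6 of 6 animals, at 0.841 to 8.42 CPM with a median of 2.08 CPM in inguinal and 3.35 to 46.1 CPM with a median of 9.98 CPM in omental libraries (log2 difference −1.84 ± 0.44 SE, adjusted p = 0.177), and DESeq2 called it at −1.80. miR-136 differed by −0.87 ± 0.41 (SE, adjusted p = 0.547). The remaining 30 members had log2 differences of −0.82 to 0.55. The growth-linked miR-17-92 family had 9 of 12 members below 0 and 3 above, where 46.1% of all features lay above 0. Its median was −0.61 and it had no call, with miR-18b at −1.50 ± 0.60 (SE, adjusted p = 0.540).

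None of the 8 most abundant features was called by edgeR in the paired fit. let-7c was at 69955 ± 35309 CPM in inguinal and 48705 ± 11561 CPM in omental libraries (SD, n = 6 each; log2 difference 0.42 ± 0.36 SE, adjusted p = 0.742). let-7i differed by 0.26 ± 0.23 (SE, adjusted p = 0.752) and let-7f by −0.15 ± 0.23 (SE, adjusted p = 0.900), and of 10 tested let-7 features none was called. The candidate locus NC_059165.1_25340 was at 17828 to 90759 CPM with a median of 46276 CPM in inguinal and 13067 to 34790 CPM with a median of 19236 CPM in omental libraries, with a log2 difference of 1.12 ± 0.27 (SE, adjusted p = 0.180); without animal 3, whose own difference was −0.054, it was called at 1.43 (adjusted p = 0.0415). It was also called by DESeq2 (1.17, 0.0163), without the filter (1.25, 0.0163) and in all 36 libraries with the block (1.20, 0.0246) or without it (1.28, 0.0286), but not with the letter added (1.11, 0.0760). miR-26a had 80195 ± 48511 CPM in inguinal and 74646 ± 55648 CPM in omental libraries (log2 difference 0.29 ± 0.50 SE, adjusted p = 0.930), and of its reads together with those of miR-26c it took at least 90.2% in 8 libraries, 4 of each depot, and at most 18.6% in the other 4. In the miR-99, miR-100 and miR-125 families none of 6 was called: miR-100 was higher in inguinal fat in 6 of 6 animals (0.42 ± 0.23) and miR-125a lower in 6 of 6 (−0.68 ± 0.27).

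None of the tested members of the miR-424 and miR-503 cluster (5), the miR-29 family (5), the miR-30 family (6), the miR-181 family (4), the miR-221 and miR-222 pair (2) and the miR-148 and miR-152 family (4) was called, and the medians of these groups ran from −0.39 to 0.13. The same held for the 3 erythroid, 2 endothelial, 3 kidney and gut and 4 muscle miRNAs, with medians of −0.40, 0.029, −0.14 and −0.43. The muscle miRNA miR-206 was at 61.8 CPM in IAT6 and 68.8 CPM in OAT1 and at 4.92 to 24.8 CPM in the other 10 libraries (−0.73 ± 0.58).

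**Figure D4:**
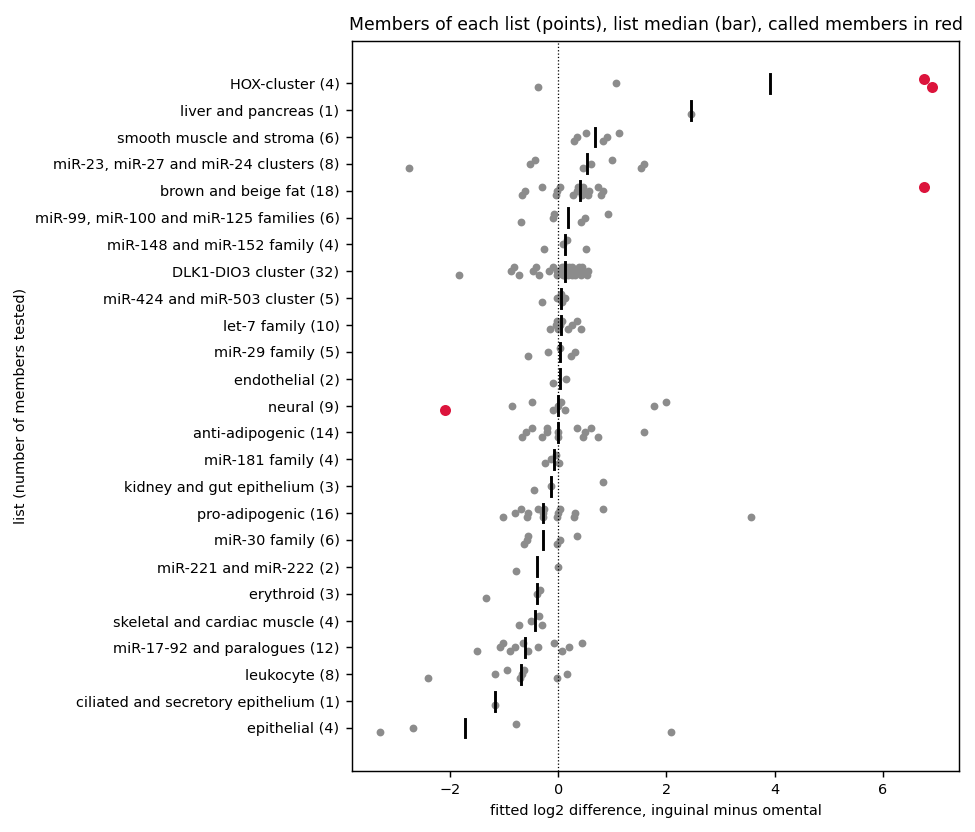
Fitted log2 difference of inguinal minus omental fat (horizontal axis) of every tested member (points) of the 25 lists (vertical axis, number of tested members in brackets), with the list median as a bar and called members in red. The HOX-cluster list has the highest median, at 3.91, and the epithelial list the lowest, at −1.73; red points are miR-196a (in 2 lists), miR-196b and miR-218.

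To see which differences were larger or smaller here than between other depots of the same classes, the inguinal minus omental difference was tested against the mean of back and sternal minus the mean of pericardial and perirenal fat, in 1 model of all 36 libraries with the animal as a block. Of 667 features tested 6 differed (0.900%), 4 upward (0.600%) and 2 downward (0.300%). Depot means in this comparison are scaled over 36 libraries.

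The miR-196 pair differed more between inguinal and omental fat than between the class means of the other depots. miR-196a differed by 6.26 between inguinal and omental fat and by 1.76 between the others, a difference of differences of 4.50 ± 0.85 (SE, adjusted p = 0.00636). It averaged 359.9 ± 176 CPM in inguinal, 216 ± 84.04 CPM in perirenal, 124 ± 77.5 CPM in back, 18.00 ± 7.14 CPM in sternal, 7.82 ± 13.3 CPM in omental fat and 0.728 ± 0.644 CPM in fat of the pericardium (SD, n = 6 each). Perirenal fat, of the visceral class, thus had the highest mean after inguinal fat. It was averaged with pericardial fat, which had the lowest, so the 1.76 is not that of any single pair of depots. Back and perirenal fat each exceeded pericardial fat by a larger ratio of means than inguinal exceeded omental fat. Neighbouring depots were not tested against each other. For miR-196b the difference of differences was 3.60 ± 0.78 (SE, adjusted p = 0.0110), with 3229 ± 1633 CPM in inguinal and 85.9 ± 156 CPM in omental fat against 2629 ± 1198 CPM in perirenal fat. miR-10b and miR-23a gave no such call, at −0.31 ± 0.31 (SE, adjusted p = 0.782) and −0.11 ± 0.44 (SE, adjusted p = 0.945), and neither did miR-218 at −0.95 ± 0.53 (SE, adjusted p = 0.573).

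miR-10a and the candidate locus NC_059159.1_8293 went the other way. miR-10a was 1.52 higher in the other subcutaneous depots than in the other visceral ones but differed by −0.46 between inguinal and omental fat, a difference of −1.98 ± 0.39 (SE, adjusted p = 0.00636). Its lowest depot was pericardial fat (132 ± 43.1 CPM) and its highest sternal fat (1493 ± 676 CPM), with 610.4 ± 174 CPM in inguinal and 886 ± 494 CPM in omental fat. For NC_059159.1_8293 the value was −1.67 ± 0.36 (SE, adjusted p = 0.0110). miR-9-5p differed by −3.09 between the other depots and by −0.75 between inguinal and omental fat, a difference of 2.34 ± 0.51 (SE, adjusted p = 0.0110), with 11.1 ± 6.11 CPM in omental against 43.4 ± 18.97 CPM in pericardial and 24.4 ± 10.2 CPM in perirenal fat. miR-381 of the DLK1-DIO3 cluster differed by −1.63 between the other depots and by 0.37 here, a difference of 1.998 ± 0.49 (SE, adjusted p = 0.0354).

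Each of the 6 calls was lost without some animal: miR-196a without animal 1 (4.16) or 4 (4.21), miR-196b without animal 1 (2.77), 3 (3.59) or 4 (3.55), miR-10a and NC_059159.1_8293 without animal 3 (−1.69 and −1.37), miR-9-5p without animal 1 (2.11), and miR-381 without animal 1 (1.86), 2 (1.77) or 4 (1.66). Without animal 5 none was called in edgeR, with 55 features at an unadjusted p under 0.05; the values were then 4.34 for miR-196a, 3.03 for miR-196b, −1.90 for miR-10a, −1.66 for NC_059159.1_8293, 2.103 for miR-9-5p and 1.84 for miR-381. Without animal 1 the count was 2 and without animal 4 it was 3. Without the block 2 features were called, miR-196a and miR-10a, and DESeq2 with the block called 16, the 6 named here among them.

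**Figure D5:**
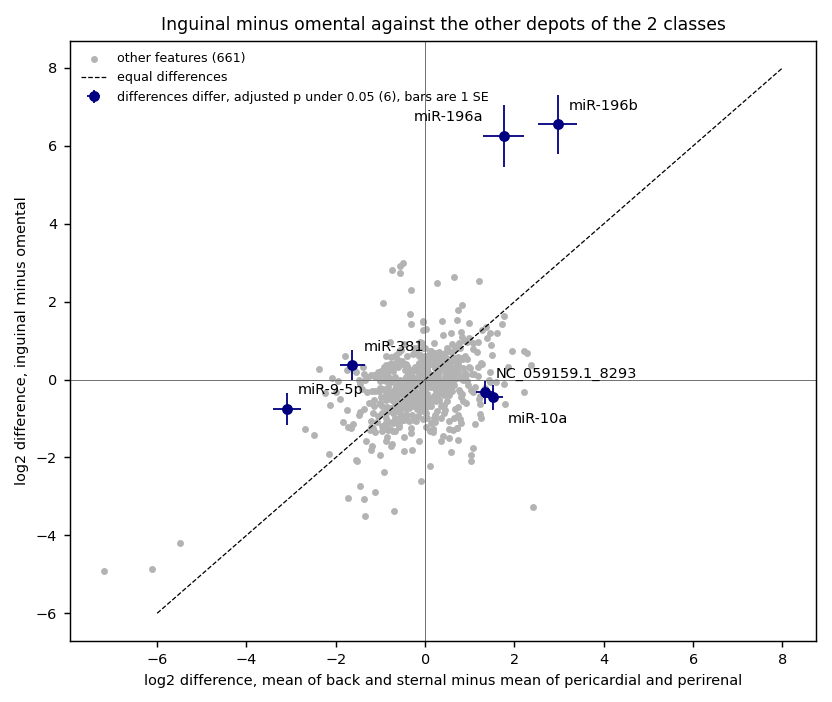
Log2 difference of inguinal minus omental fat (vertical axis) against that of the mean of back and sternal minus the mean of pericardial and perirenal fat (horizontal axis) for 667 features; blue points with bars of 1 SE are the 6 whose differences differ, and the dashed line marks equal differences. miR-196a and miR-196b lie above the line at the top, miR-9-5p and miR-381 above it on the left, and miR-10a and NC_059159.1_8293 below it.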

How the data were processed

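The values the authors deposited are raw counts, whole numbers of reads for each feature in each library. Per the labels' protocols, total RNA came from a lipid tissue kit (RNeasy) and libraries from a TruSeq RNA kit. For the aligner, miRNA caller, genome build and strand the entry is "not given in the sources used here". The submitters' processing notes name DESeq2 1.24.0 without saying what it did. A blank row holding 0 counts was left out. Groups, animal and letter come from the labels. Counts of the 12 libraries were tested in R 4.3.3 with edgeR 4.0.16 (TMM factors 0.814 to 1.17, filterByExpr with a minimum count of 10, estimateDisp, robust glmQLFit and glmQLFTest, two-sided) with depot and animal as terms and 5 residual degrees of freedom, and p-values were adjusted over all 536 features tested, 335 with miRNA names. The same 6 animals gave both depots: deviations from the depot means correlated by 0.199 to 0.393 within animals and by −0.0641 on average between animals. The SE is the size of a fitted difference over the square root of its F statistic. Log2 CPM used a prior count of 2. Features were named by rule: called ones with at least 10 CPM on average and 5 or 6 animals in the same direction (up to 12 miRNAs and 2 candidate loci per direction), the 8 most abundant, all tested HOX-cluster, epithelial and ciliated members, up to 4 members of each other list by p, and up to 5 per direction of the comparison with the other depots; values are given for most of them. The comparison, its members and the 25 lists were chosen with earlier results of these data known. Alternatives were RLE factors, library totals, no filter, a 10 CPM minimum mean, no block, all 36 libraries, the letter, DESeq2 1.42.0, limma 3.58.1 on log2 CPM, summed near-identical members, each animal left out and, chosen after seeing the data, animals 2, 4 and 6 left out. The fits were also run on simulated counts without animal effects, a run that cannot show how the block performs. Seed families were not tested, since no mature sequences were used here.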

Additional observations from a re-analysis of the deposited data

Results flagged for a closer look

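Of 104 groups examined (52 features in 2 depots), 8 held a library far from the other 5 of its depot on the log2 scale, where chance flags about 1 in 20. IAT6 was that library for 6 of them. It was high in miR-200a (36.4 CPM), miR-429 (24.3 CPM), miR-200c (14.1 CPM), miR-155 (3644 CPM) and miR-206 (61.8 CPM), where the nearest inguinal libraries held 1.05, 0.747, 3.05, 884 and 9.06 CPM, and low in miR-381 (5.06 CPM, nearest 23.1 CPM). IAT2 was low in NC_059175.1_39359 (11.6 CPM, nearest 121 CPM), and OAT4 was low in miR-30d (404 CPM, nearest 599.7 CPM).

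The inguinal minus omental difference differed from that between the other depots of the 2 classes for 6 features: miR-196a (4.50), miR-196b (3.60), miR-9-5p (2.34), miR-381 (1.998), miR-10a (−1.98) and NC_059159.1_8293 (−1.67). The sign was shared by 6 of 6 animals for miR-196a and miR-9-5p, 5 of 6 for miR-196b and miR-381, and 6 of 6 for miR-10a and NC_059159.1_8293.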

How the results depend on the processing

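Between inguinal and omental fat 4 features were called. The count was 11 with no filter, 1 with no replicate block, 0 in the letter B pairs alone, 23 with DESeq2, 2 without animals 2, 4 and 6 (chosen after seeing the data) and 2 to 4 with each animal left out; the other settings gave 3 to 6. For the comparison with the other 4 depots 6 were called, 2 with no replicate block, 16 with DESeq2 and 0 to 8 with each animal left out. Over 52 features and 19 settings, and the 6 calls of the other comparison over 12, signs turned in 20 of 1047 values. miR-10a turned when summed with miR-10b (1.01), and miR-486 in all 36 libraries without the block (0.016). miR-26a turned in all 36 libraries with the block (-3.26e-04), with the letter besides (−0.053) and in the letter B pairs (−0.46). It also turned without animal 6, and its values over left-out animals ran from −0.12 to 0.69. Without animals 2, 4 and 6, miR-26a (−0.13), miR-142-5p (0.36) and let-7f (0.11) turned. miR-342, at −0.021, turned with RLE factors (0.024), no filter (0.11), no replicate block (0.060), all 36 libraries with (0.068) or without the block (0.14) or with the letter (0.042), DESeq2 (0.024), summed pairs (0.044) and left-out animals (−0.14 to 0.20). None of these was called. The remaining changes were 42 lost and 23 gained calls in the same direction; the cause was not tested. With library totals alone the all-feature median went from −0.028 to −0.12. With 6 pairs the fit has 5 residual degrees of freedom. Seed families were not run.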

Other observations

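The candidate locus NC_059159.1_8293 was counted at 2.40 to 6.28 times the miR-10a count in each of the 36 libraries, with a median ratio of 4.12, and at 3.17 to 6.28 times in the 12 inguinal and omental libraries. The 2 features gave differences of differences of the same sign in the comparison with the other depots. The table does not pair the locus with a miRNA name. This ratio was examined after its values were seen.

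Of 23 precursors with both arms tested, 13 had log2 differences of inguinal minus omental fat of the same sign in both arms. miR-23b was among those with opposite signs, with −2.75 for the 5p and 0.997 for the 3p arm; the difference between the arms was not tested. The summed miR-26a and miR-26c averaged 115060 ± 14526 CPM in inguinal and 106230 ± 28502 CPM in omental libraries (SD, n = 6 each) and differed by 0.22 ± 0.22 (SE, adjusted p = 0.799).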
